A study of Mus musculus with 6 samples.

Results

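Cxcr3, Cxcr4, Cxcr6, Ackr3 and Cx3cr1 encode receptors for chemokines, the small secreted proteins that steer migrating leukocytes, and their expression was followed in stimulated regulatory T cells (Tregs) with and without the transcriptional repressor BACH2. These 5 genes, of 49585 in the deposited table, were taken by symbol, and each symbol matched 1 row. They leave out Cxcr5, the receptor gene that marks cells of the B cell follicle. By class, Cxcr3, Cxcr4 and Cxcr6 encode CXC receptors, Ackr3 an atypical receptor for CXC chemokines, and Cx3cr1 the receptor of the CX3C chemokine. The cells were splenic and the mice C57BL/6, aged 7 weeks. Cells positive for CD4 and YFP and negative for B220 were sorted (CD25 is a further sort marker in the series' design text) and cultured for 24 h on plate-bound antibodies to CD3 and CD28. There were 3 libraries of genotype WT and 3 of genotype Bach2-cKO. The labels give neither the driver of the knockout nor that of YFP, and they do not say whether a library is a separate mouse, so the spread between libraries may be technical.

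Chemokine receptors of the classical kind signal through inhibitory G proteins to integrins and the actin cytoskeleton, and are then taken up with the help of arrestins. CXCR3 answers the interferon-induced chemokines CXCL9, CXCL10 and CXCL11 and is a receptor of type 1 T cells and of Tregs that express T-bet. CXCR4 binds CXCL12, which holds leukocytes in the bone marrow, CXCR6 binds CXCL16 and is found on T cells that lodge in liver and other tissues, and CX3CR1 binds CX3CL1 and is best known from monocytes and cytotoxic lymphocytes. ACKR3 takes up CXCL11 and CXCL12 without classical G protein signalling.

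The upstream sequences of the 3 genes that were well expressed are shown because Cxcr6 and Cxcr3 rose in the libraries labelled Bach2-cKO while Cxcr4 had no call. They are RefSeq sequences of GRCm38.p6, read 5′ to 3′ on the strand of the gene. Each begins 250 bases before the RefSeq start and stops before that start or before the gene in the deposited table, whichever comes first. The stretch of Cxcr3 is therefore short. Cxcr6 lies at chr9:123806227-123806474 on the plus strand, Cxcr3 at chrX:101734270-101734397 on the minus strand and Cxcr4 at chr1:128592300-128592549 on the minus strand. Capitals mark TATAAA, the TATA box, on either strand.
Cxcr6: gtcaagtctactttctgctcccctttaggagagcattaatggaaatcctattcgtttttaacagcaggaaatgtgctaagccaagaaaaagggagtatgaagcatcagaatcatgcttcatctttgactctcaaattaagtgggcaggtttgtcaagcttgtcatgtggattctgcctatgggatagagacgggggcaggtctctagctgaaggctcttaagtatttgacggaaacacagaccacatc
Cxcr3: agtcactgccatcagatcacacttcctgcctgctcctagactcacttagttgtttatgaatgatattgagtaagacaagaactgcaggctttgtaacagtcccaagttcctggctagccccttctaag
Cxcr4: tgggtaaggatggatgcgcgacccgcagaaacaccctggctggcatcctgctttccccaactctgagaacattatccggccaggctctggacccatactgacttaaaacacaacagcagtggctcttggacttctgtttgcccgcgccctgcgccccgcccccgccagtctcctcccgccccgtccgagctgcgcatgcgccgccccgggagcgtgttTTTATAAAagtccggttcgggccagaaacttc

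All 5 genes had an entry, and their windows from 250 bases before to 50 bases after the start were searched on both strands for 4 short motifs. TGAGTCA, the core bound by AP-1 and by BACH2 with small MAF proteins, was in none of the 5 windows and in 5.20% of 32851 windows of that length. GGTGTGA, a T-box core, was likewise in none, against 3.98% of all windows. TGCTGA, the outer part of a MAF recognition element, was in the windows of Cxcr3 (36 to 31 bases before the start, outside the stretch shown) and Ackr3, against 19.5% of all windows. TATAAA was in those of Cxcr4, 30 to 25 bases before the start, and of Ackr3, against 13.6% of all windows. A match here describes letters only, and distant elements were not searched.

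Before the receptors, the labels and the cells were checked in the same table. Bach2 itself was at 112, 111 and 99.4 FPKM in the WT libraries and at 88.9, 105 and 121 in those labelled Bach2-cKO (limma adjusted p = 0.812). FPKM counts fragments per unit of gene length and library depth, and it sums all exons. Which exons the knockout removes is not stated in the labels. The level of Bach2 therefore checks no label, and every direction below rests on the labels. Read totals recovered from the FPKM steps were 27697735 to 43884431 per library. Foxp3, the Treg lineage factor, was at 104.2 to 153.5 FPKM, and the 12 markers of B cells were all detected in every library, with summed levels of 1439 to 2035 FPKM in WT and 1959 to 2499 in Bach2-cKO. In bulk RNA, more cells of a type and more RNA per cell cannot be told apart.

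Cxcr4 was the most abundant of the 5 genes in every library, Cxcr6 and Cxcr3 followed, and Ackr3 and Cx3cr1 stayed under 1 FPKM throughout. In WT the order was Cxcr4 (126.7 to 139.1 FPKM), Cxcr6 (28.1 to 38.4), Cxcr3 (17.3 to 21.3), Ackr3 (0.448 to 0.687) and Cx3cr1 (0.222 to 0.475). In Bach2-cKO, Cxcr4 (124.8 to 200.8), Cxcr6 (77.2 to 88.2) and Cxcr3 (24.8 to 34.0) kept that order. In both groups these 3 genes did not overlap each other, whereas the ranges of Ackr3 and Cx3cr1 did. Among 24 chemokine receptor genes in the table, ranked by mean FPKM, Cxcr4 was 2nd in WT after Ccr7 and 1st in Bach2-cKO, Cxcr6 went from 8th to 5th and Cxcr3 from 10th to 9th.

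**Figure D1:**
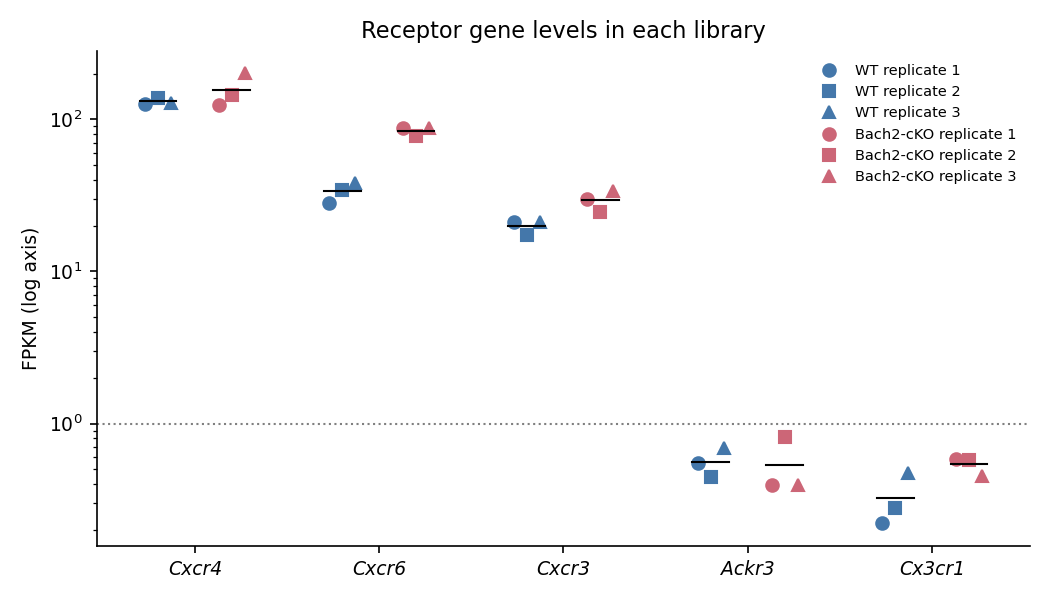
FPKM of the 5 receptor genes on a log axis, each point 1 library, with WT in blue, Bach2-cKO in red and a black bar for the group mean; the dotted line is 1 FPKM, the minimum for testing. The Bach2-cKO points of Cxcr6 (77.2 to 88.2) and Cxcr3 (24.8 to 34.0) lie above all WT points, and those of the other 3 genes overlap WT.

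Of the 3 genes that passed the filter on low values (at least 1 FPKM in at least 3 libraries), Cxcr6 and Cxcr3 rose in Bach2-cKO and Cxcr4 had no call. Over all 13766 genes tested, 7.02% rose and 8.31% fell by the same rule, limma on log2(FPKM + 1) with a Benjamini-Hochberg adjusted p under 0.05. Ackr3 and Cx3cr1 did not pass the filter. Of the genes tested, 0 of the 3 fell, and 0 fell at an unadjusted p under 0.05 or by limma-voom.

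Cxcr6, the CXCL16 receptor gene (ENSMUSG00000048521, chromosome 9, 123806475 to 123811760, GRCm38), had the largest change of the 5. It was at 28.1, 34.2 and 38.4 FPKM in WT replicates 1 to 3 and at 87.7, 77.2 and 88.2 FPKM in Bach2-cKO replicates 1 to 3. The lowest Bach2-cKO library lay well above the highest WT library. Mean FPKM went from 33.6 ± 5.17 to 84.4 ± 6.18 (SD, n = 3 each), a ratio of 2.51. The log2 fold change was 1.31 (SE 0.115, 95% interval 1.05 to 1.58, limma adjusted p = 0.000701), against a median of -0.017 over all genes tested, and 90 of the 13766 genes had a change as large or larger upward, Cxcr6 included. A call with a rise of at least 1 on the log2 scale was made for 1.37% of all genes tested, and among the 5 receptor genes for Cxcr6. Cxcr6 rose with any 1 library left out (1.19 to 1.41 on the log2 scale). The gene lies within the span of Fyco1 on the opposite strand but shares no exon base with it in GENCODE M21.

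Cxcr3, the receptor gene for interferon-induced chemokines (ENSMUSG00000050232, chromosome X, 101731535 to 101734269), rose by less. Its FPKM was 21.3, 17.3 and 21.1 in WT replicates 1 to 3 and 29.7, 24.8 and 34.0 in Bach2-cKO replicates 1 to 3. The Bach2-cKO values all lay above WT, as for 15.5% of all genes tested (20.1% lay all below, 35.6% either way), and the gap between the highest WT and the lowest Bach2-cKO library was small. Mean FPKM went from 19.9 ± 2.26 to 29.5 ± 4.63 (SD, n = 3 each), a ratio of 1.49, with a log2 fold change of 0.54 (SE 0.130, 95% interval 0.24 to 0.85, limma adjusted p = 0.0302). This call was lost when any library other than Bach2-cKO replicate 2 was left out (limma adjusted p = 0.0517 to 0.0881; 0.44 to 0.59 on the log2 scale) and with no filter on low values (limma adjusted p = 0.0963). When a score of B cell markers was added as a covariate, the change was 0.86 and the limma adjusted p = 0.0634. The unadjusted limma p was 0.0014 with the score and 0.0034 without it. The score was at -0.368 to 0.056 in WT and 0.060 to 0.379 in Bach2-cKO, so this fit cannot fully separate it from genotype.

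Cxcr4, the CXCL12 receptor gene (ENSMUSG00000045382, chromosome 1, 128588199 to 128592293), had no call. It was at 126.7, 139.1 and 127.5 FPKM in WT replicates 1 to 3 and at 124.8, 143.6 and 200.8 in Bach2-cKO replicates 1 to 3. Bach2-cKO replicate 3 stood above all other libraries, and the other 2 of its group lay on both sides of the WT range. Mean FPKM was 131 ± 6.94 in WT and 156 ± 39.6 in Bach2-cKO (SD, n = 3 each), with a log2 fold change of 0.23 (SE 0.158, 95% interval -0.14 to 0.59, limma adjusted p = 0.379). The interval still includes a rise of 0.59, so the data do not show that Cxcr4 was equal. Without Bach2-cKO replicate 3 the log2 fold change was 0.03 (limma adjusted p = 0.819), and with the B cell score added it was 0.08.

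**Figure D2:**
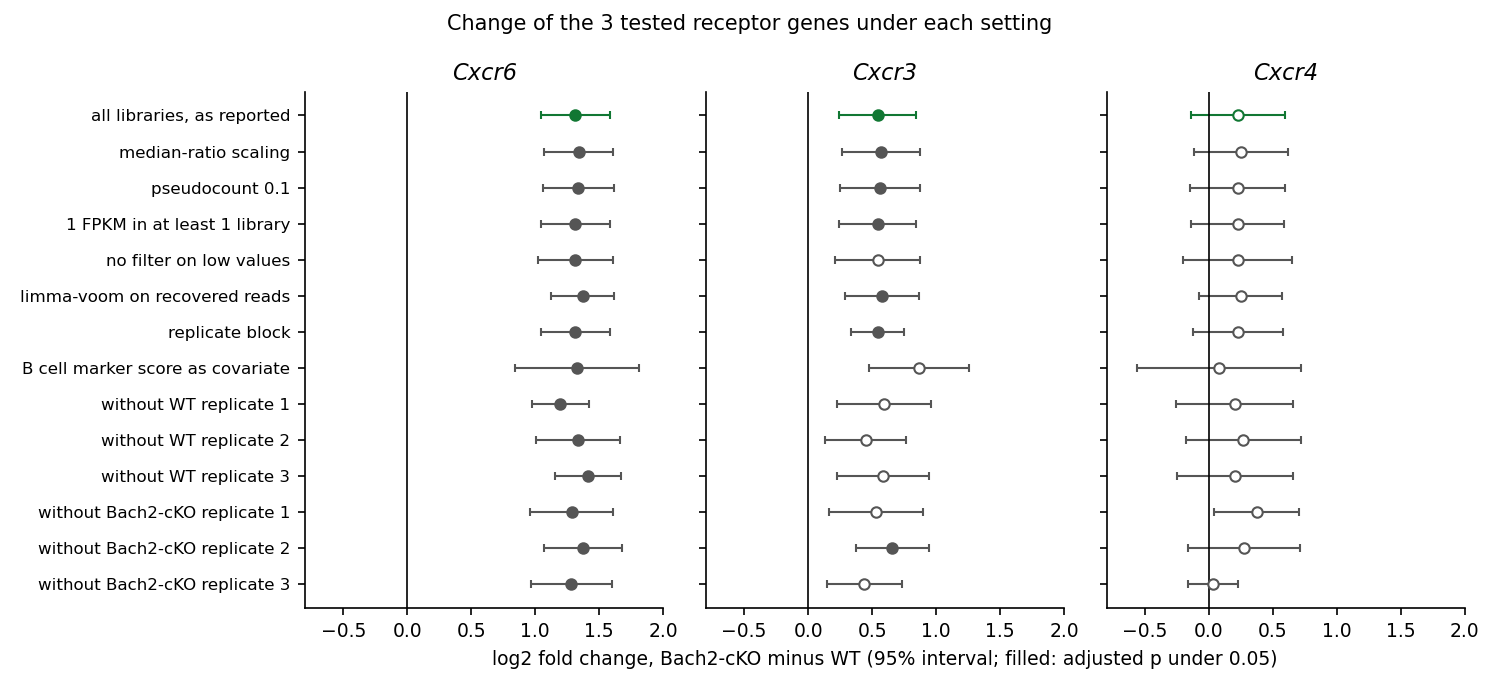
Log2 fold change (x axis, Bach2-cKO minus WT, with 95% interval) of Cxcr6, Cxcr3 and Cxcr4 under each setting (rows); filled points have an adjusted p under 0.05. Cxcr6 is filled in every row, Cxcr3 loses its call in most rows that leave out a library, and Cxcr4 has no call in any row.

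Ackr3, the scavenging receptor gene (ENSMUSG00000044337, chromosome 1, 90203980 to 90216751), was weakly detected. It was at 0.552, 0.448 and 0.687 FPKM in WT replicates 1 to 3 and at 0.395, 0.811 and 0.394 in Bach2-cKO replicates 1 to 3, from 19 to 45 recovered reads per library. The Bach2-cKO values lay on both sides of WT. Mean FPKM was 0.562 ± 0.120 in WT and 0.534 ± 0.240 in Bach2-cKO (SD, n = 3 each). A fit with no filter on low values gave a log2 fold change of -0.03 on the log2(FPKM + 1) scale (limma adjusted p = 0.910).

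Cx3cr1, the CX3CL1 receptor gene (ENSMUSG00000052336, chromosome 9, 119901616 to 120069879), was as low. It was at 0.222, 0.281 and 0.475 FPKM in WT replicates 1 to 3 and at 0.589, 0.576 and 0.455 in Bach2-cKO replicates 1 to 3, from 33 to 70 recovered reads per library. WT replicate 3 exceeded Bach2-cKO replicate 3, so the groups overlapped, although the other 2 libraries of WT were the lowest. Mean FPKM was 0.326 ± 0.132 in WT and 0.540 ± 0.0740 in Bach2-cKO (SD, n = 3 each), and the fit with no filter gave a log2 fold change of 0.22 (limma adjusted p = 0.293), a scale that compresses changes at this level. The annotated span of the gene covers 9 other genes, and 78 exon bases are shared with Gm33858 on the opposite strand. Monocytes and macrophages also express Cx3cr1, and some of their markers moved with the groups at similarly low levels. Adgre1 was at 0.351 to 0.589 FPKM in WT and 0.963 to 1.29 in Bach2-cKO, and Itgam at 0.273 to 0.377 and 0.470 to 0.528, both all above WT. Of the 12 markers, 8 were under 1 FPKM in every library, Csf1r, Cd14, Mertk and Itgam among them, while Cd68, Ly6c2 and Lyz2 were above 1 FPKM in every library. The part of these cells in the level of Cx3cr1 was not tested.

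The make-up of the receptor transcripts shifted with Cxcr6. Of the summed FPKM of the 5 genes, Cxcr4 made up 71.7%, 72.7% and 67.8% in WT replicates 1 to 3 and 51.3%, 58.1% and 62.0% in Bach2-cKO replicates 1 to 3. Cxcr6 made up 15.9% to 20.4% in WT and 27.2% to 36.1% in Bach2-cKO, and the groups did not overlap for either gene. The share of Cxcr3 overlapped, at 9.02% to 12.0% and 10.03% to 12.2%. Shares of a sum depend on each other, so the lower share of Cxcr4 is no fall in its level.

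**Figure D3:**
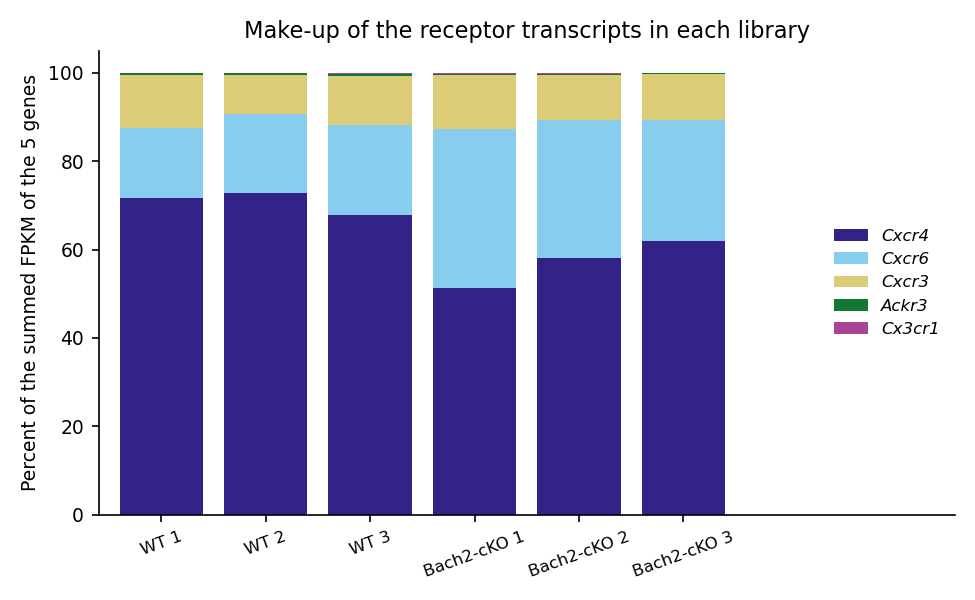
Percent of the summed FPKM of the 5 receptor genes (y axis) that each gene makes up in each library (bars). Cxcr6 takes 15.9% to 20.4% in the WT libraries and 27.2% to 36.1% in the Bach2-cKO libraries, and Ackr3 and Cx3cr1 are too small to see.

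Relative to each other, Cxcr6 moved more than Cxcr3. The ratio of Cxcr6 to Cxcr3 FPKM was 1.32, 1.98 and 1.82 in WT replicates 1 to 3 and 2.95, 3.12 and 2.59 in Bach2-cKO replicates 1 to 3, without overlap. Per Foxp3 FPKM, Cxcr6 was at 0.221 to 0.339 in WT and 0.575 to 0.785 in Bach2-cKO, and Cxcr3 at 0.160 to 0.186 and 0.222 to 0.266. Cxcr4 per Foxp3 overlapped between the groups, at 0.995 to 1.29 and 1.12 to 1.38. These ratios are a description and were not tested.

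The ligand genes of these receptors had no call. Over all genes tested 7.02% rose and 8.31% fell, so the lack of a call among 5 genes does not set the ligands apart. Of 10 listed, 5 were tested and none passed in limma or limma-voom, with 1 lower at an unadjusted p under 0.05 in limma (0 higher). That gene was Cxcl16, the ligand of CXCR6, at 12.3, 18.4 and 12.8 FPKM in WT and 11.8, 10.9 and 6.79 in Bach2-cKO (log2 fold change -0.53, limma adjusted p = 0.148). All 3 Bach2-cKO values of Cxcl16 lay below WT, as for 20.1% of all genes tested, by a narrow margin in replicate 1. Cxcl10, a CXCR3 ligand, was at 7.42 to 13.4 FPKM in WT and 11.9 to 15.6 in Bach2-cKO (adjusted p = 0.354), and Cx3cl1 at 9.57 to 13.1 and 8.87 to 14.5 (limma adjusted p = 0.969). Cxcl9 reached at most 1.06 FPKM, Cxcl11 0.0723 and Cxcl12, a stromal chemokine, 0.0213, and these 3 did not pass the filter.

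Among 35 genes of receptor signalling and turnover, 6 rose, 1 fell and 28 did not pass, against 15.3% called in either direction over all genes, and the median log2 fold change was 0.0024. The genes Gnai2, Arrb2 and Grk2 for an inhibitory G protein subunit, an arrestin and a receptor kinase, named after their values were seen, had log2 fold changes of 0.10, -0.09 and -0.01 and no call. Elmo1, which with DOCK2 activates RAC downstream of chemokine receptors, rose by 0.56 on the log2 scale (limma adjusted p = 0.00210), from a mean FPKM of 34.0 ± 2.20 to one of 50.4 ± 0.331 (SD, n = 3 each). Tpst1, an enzyme that sulfates tyrosines of chemokine receptors, rose by 0.55, Pik3cg, a kinase subunit activated by G proteins, by 0.36 and Rap1a, a GTPase that activates integrins, by 0.24. The phospholipase gene Plcb2 fell by 0.27 on the log2 scale. Cd74, which encodes a receptor chain for MIF that B cells express at high levels, rose by 1.01, and Gng2, named after its value was seen, by 0.26. Leaving out replicate 1 of either group left 2 signalling genes called higher, and leaving out Bach2-cKO replicate 2 left 3, and the fall of Plcb2 was lost without any WT replicate or Bach2-cKO replicate 2.

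Compared with the other chemokine receptor genes tested, Cxcr6 had the largest log2 fold change upward of FPKM + 1, a scale that compresses changes of low genes. By the ratio of mean FPKM, Ccr9 was level with it, at 2.49 against 2.51. Of 19 others, 13 were tested, and 6 rose, 3 fell and 4 did not pass, with a median log2 fold change of 0.60, where 7.02% of all genes tested rose and 8.31% fell. Ccr9, Ccr2, Ccr4 and Ccr8 rose by 1.05, 0.99, 0.98 and 0.79, with 95% intervals that overlap that of Cxcr6. Ccr7, the lymph node homing receptor gene, fell by 1.49 and Ccr6 by 0.80, and Ccr3, named after its value was seen, by 0.54. Cxcr5, the follicular receptor gene, had no call, with a log2 fold change of 0.48 (limma adjusted p = 0.0629) and mean FPKM of 39.4 ± 2.82 and 56.3 ± 11.7 (SD, n = 3 each). With WT replicate 1 or 2 or Bach2-cKO replicate 2 left out, 3 of these receptors were called higher, and 2 were called lower whichever library was left out. Summed over the 24 receptor genes, the 5 genes held 23.7% to 25.7% of the FPKM in WT and 30.3% to 39.6% in Bach2-cKO. This share also depends on the other receptor genes, of which Ccr7 had mean FPKM of 330 in WT and 117 in Bach2-cKO. The 39.6% was in Bach2-cKO replicate 3, where Cxcr4 was also highest.

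**Figure D4:**
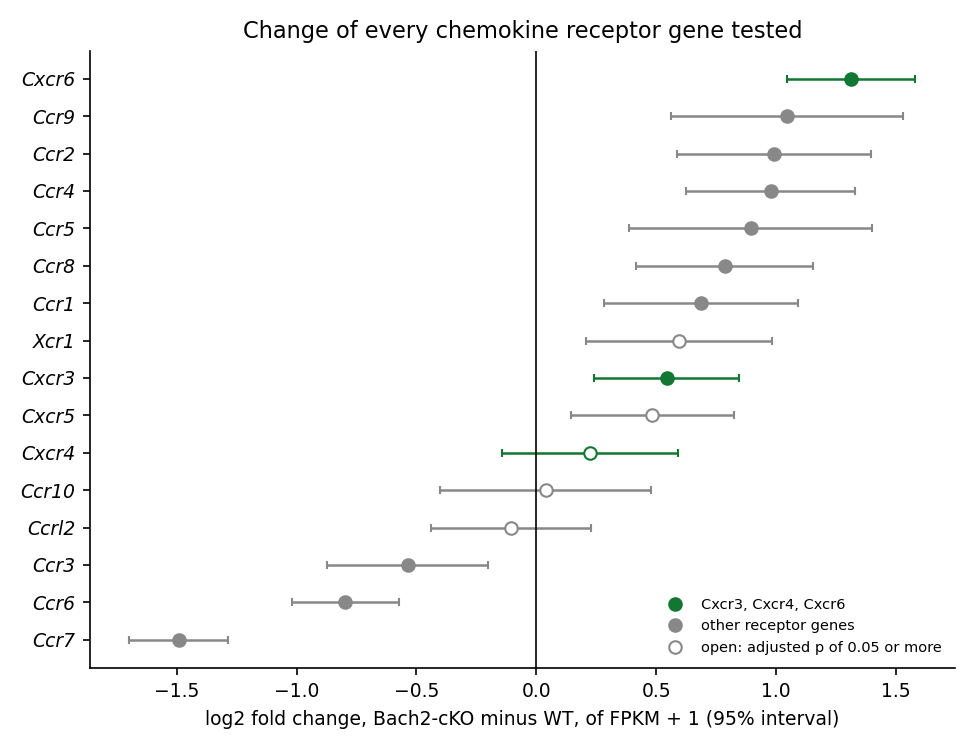
Log2 fold change of FPKM + 1 (x axis, Bach2-cKO minus WT, with 95% interval) of the 16 chemokine receptor genes tested, with Cxcr3, Cxcr4 and Cxcr6 in green and open points for an adjusted p of 0.05 or more. Cxcr6 lies farthest right at 1.31 and Ccr7 farthest left at -1.49.

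Cxcr6 lies in a cluster of chemokine receptor genes on chromosome 9. Neighbours here are the nearest tested genes that do not overlap the receptor gene. Those of Cxcr6 were Ccr9, 22.1 kb to the side of lower coordinates, and Xcr1, 40.6 kb to the other side. Ccr9 rose by 1.05 on the log2 scale (limma adjusted p = 0.0156). Xcr1 was at 0.461 to 0.949 FPKM in WT and 1.52 to 1.69 in Bach2-cKO (limma adjusted p = 0.0512). Ccr8, 22.2 kb from Cx3cr1, rose by 0.79, and Exog, 436 kb from Cx3cr1 on its other side, had no call (limma adjusted p = 0.966). The tested neighbours of Cxcr3 (Ogt and Tpt1-ps6), Cxcr4 (Dars) and Ackr3 (Cops8) had limma adjusted p-values of 0.180, 0.586, 0.0937 and 0.111.

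Of 17 regulators linked to these receptors in lymphocytes, 16 were tested, and 7 rose, 1 fell and 8 did not pass, beside 7.02% higher and 8.31% lower over all genes tested. Tbx21, which encodes T-bet, an activator of Cxcr3, rose by 0.86 on the log2 scale (limma adjusted p = 0.0289), with mean FPKM of 11.6 ± 2.94 and 21.6 ± 4.19 (SD, n = 3 each). Zeb2, a repressor gene of effector lymphocytes, rose by 0.66, Hif1a, the hypoxia factor gene, by 0.43, Nr3c1, the glucocorticoid receptor gene, by 0.42, and Id2, an inhibitor of E proteins, by 0.42. Prdm1, which encodes BLIMP-1, rose by 1.48. Gata3 rose by 0.33 and Klf2, a factor for recirculation of T cells, fell by 0.60, both named after their values were seen. Leaving out WT replicate 1 or 2, or Bach2-cKO replicate 1, left 3 regulators called higher, and leaving out WT replicate 3 or Bach2-cKO replicate 2 left 4. The call of Klf2 was kept without WT replicate 3 and lost when any other library was left out (limma adjusted p = 0.0501 to 0.119). Without Bach2-cKO replicate 3 the 1 regulator called lower was Foxo1, named after its value was seen.

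The genes most like each receptor across the 6 libraries were found by the root mean square difference of log2(FPKM + 1) values, each centred on its own mean, among 9275 named genes with a mean of at least 5 FPKM. For Cxcr6 they were Plk3, Rbpj and Rgs16, with differences of 0.0646, 0.110 and 0.116 on the log2 scale, and for Cxcr3 Il12rb1, Itgav and D16Ertd472e, at 0.0673, 0.0797 and 0.0880. For Cxcr4 they were Rrm2b, Stom and Agtrap, at 0.0702, 0.0785 and 0.0807, which, like Cxcr4, were highest in Bach2-cKO replicate 3. Plk3 was at 14.0 to 19.8 FPKM in WT and 41.5 to 45.9 in Bach2-cKO, and Il12rb1, an interleukin-12 receptor chain gene, at 81.6 to 102.0 and 124.8 to 146.2. The likeness is a description over 6 libraries in 2 groups and carries no test.

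Markers of other cells that can express these receptors also moved with the groups, and their counts stand beside 7.02% of all genes tested called higher and 8.31% called lower. The 8 CD8 T cell markers, of which 6 rose and 0 were at 0, summed to 122.0 to 155.9 FPKM in WT and to 397.7, 305.4 and 211.7 FPKM in Bach2-cKO replicates 1, 2 and 3. Within Bach2-cKO, Cxcr3 was highest in replicate 3, and Cxcr6 was nearly equal in replicates 1 and 3. The CD8 T cell sum was lowest in replicate 3, as were those of NK cell, plasma cell, and monocyte and macrophage markers. In the same library the sums of general T cell, Treg and neutrophil markers were the highest of the group. The B cell sum was 1959, 2499 and 2210 FPKM in Bach2-cKO replicates 1, 2 and 3, so replicate 3 lay between the others. These orders rest on 3 libraries, differ between the marker lists and were not tested. The 8 NK cell markers summed to 199.2 to 264.0 and 397.7 to 1217 FPKM, nearly all from Gzmb and Prf1, which T cells also express, while Klrb1c, Klra4, Klra8, Klre1 and Klri2 were under 1 FPKM in every library and 0 markers were at 0 in all. The NK cell receptor gene Ncr1 was at 0.146 to 0.416 FPKM in WT and 0.888 to 1.24 in Bach2-cKO, and Klri2 at 0.00582 to 0.0579 and 0.0830 to 0.216, both all above WT and under the filter on low values. Of the 12 B cell markers, 4 rose, and of 7 plasma cell markers 4 rose, with sums of 270.8 to 307.4 and 448.7 to 592.5 FPKM. Of the 6 general T cell markers 3 fell (1602 to 1753 against 1266 to 1447 FPKM), and of the 6 Treg markers 2 rose (1293 to 1644 against 1834 to 2171 FPKM). The 2 Treg markers that rose were Il2ra and Tigit. Foxp3, Ctla4, Ikzf2 and Tnfrsf18 had no call, with log2 fold changes of 0.07, 0.35, -0.43 and -0.10. The 12 monocyte and macrophage markers, none called and none at 0 in all libraries, summed to 30.8 to 33.7 FPKM in WT and 43.1 to 57.4 in Bach2-cKO, mostly from Ly6c2 and Cd68. The 6 neutrophil markers, none called, summed to 9.12 to 12.7 FPKM in WT, mostly from S100a8 and S100a9. In Bach2-cKO replicates 1, 2 and 3 their sums were 6.05, 46.4 and 57.4 FPKM. The part of other cells in the changes of the receptors was not tested.

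**Figure D5:**
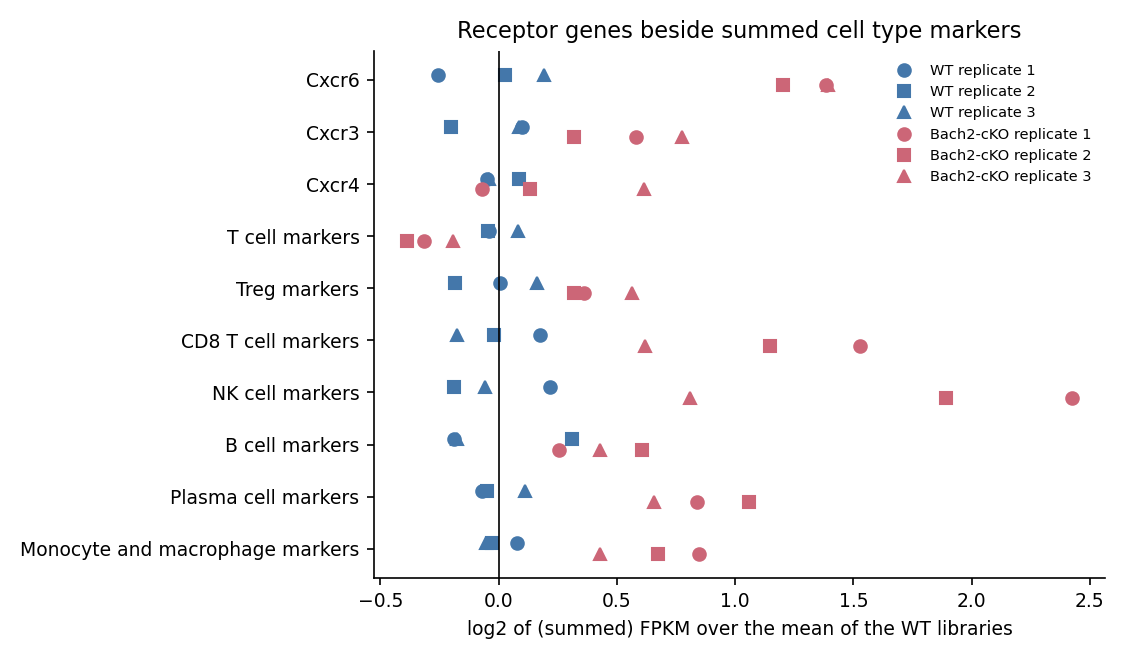
Log2 of FPKM, or of the summed FPKM of a marker list, over the mean of the WT libraries (x axis) for 3 receptor genes and 7 marker lists (rows), each point 1 library. Among the Bach2-cKO libraries replicate 3 (triangles) is highest for Cxcr3, Cxcr4 and the T cell and Treg markers, and level with replicate 1 for Cxcr6. It is lowest for the CD8 T cell, NK cell, plasma cell, and monocyte and macrophage markers. For the B cell markers replicate 3 lies between the others.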

How the data were processed

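Poly(A) RNA of 6 libraries, 3 WT and 3 Bach2-cKO, was sequenced after TRIzol extraction and an Illumina TruSeq preparation, per the labels' protocols. Per the submitters' processing notes, the tools were featureCounts 1.5.0-p3 and HISAT2 2.0.5 and the build mm9. No label names the annotation, strand setting or filters. The authors deposited FPKM per gene and library, and the 6 files of single libraries equal their columns in the table of the series. Gene positions in that table equal GENCODE M21 on GRCm38 for 45128 of 49326 shared identifiers (91.5%), so GRCm38 positions are given.

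From the FPKM steps, whole reads (tolerance 0.001 reads) were recovered for 100.0% of the 28530 genes above 0, with the exon length of the annotation for 11267 and a different length for 17263. For each of the 5 receptor genes only 1 length up to the annotated exon length gave whole reads. At these depths 3 reads in a gene of 1 kb are 0.0684 to 0.108 FPKM.

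The test was limma 3.58.1 in R 4.3.3 (lmFit, eBayes with trend), Bach2-cKO against WT, two-sided and without covariates. It was run on log2 values with a pseudocount of 1 for genes that reached 1 FPKM in 3 or more libraries. Benjamini-Hochberg adjustment covered all genes tested, and the threshold was 0.05. The test was checked on reads simulated with the same dispersion of 0.00727 for all genes. It called 6 of 48 genes with a 1.25-fold change, 41 of 50 at 1.5-fold and 49 of 50 at 2-fold. Of 13392 unchanged genes it called 15. Small changes were thus often missed there, and genes with a larger spread were not simulated. Where a symbol had several identifiers, that with the longest exons was used. Genes named besides the 5 were mostly fixed by rule. In each list these were up to 6 with the smallest p, and 6 ligands in any case. The 3 most alike genes and the nearest tested neighbour on each side within 1 Mb were also taken. Outside the rule were Cxcr5, Bach2, overlapping genes, cell type markers and the genes said to be named after their values were seen. Genes that overlap a receptor gene were not taken as its neighbours. The genes and lists were chosen with earlier results of these data known. Alternatives were median-ratio scaling, a pseudocount of 0.1, 2 other filters, limma-voom on recovered reads, a replicate block, a B cell marker score (mean centred log2 level of 12 markers) as a covariate, a threshold of 0.01 and leaving out each library. Figures were drawn with Matplotlib 3.10.9.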

Additional observations from a re-analysis of the deposited data

How the results depend on the processing

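Cxcr6 kept its rise and its call in all alternatives run, and Cxcr4 kept its sign and had no call in any. The change of Cxcr3 was positive in all of them, but its call was lost with no filter on low values (0.54, limma adjusted p = 0.0963), with the B cell marker score as a covariate (0.86), and at a threshold of 0.01 (0.54), which left 1 of the 5 genes called higher in each case. With 1 library left out the log2 fold changes ranged from 0.44 to 0.66 for Cxcr3, 0.03 to 0.37 for Cxcr4, 1.19 to 1.41 for Cxcr6, -0.16 to 0.03 for Ackr3 and 0.16 to 0.30 for Cx3cr1, and 1 to 2 of the 5 genes were called higher and 0 lower. A pseudocount of 0.1 moved the value of Cx3cr1 from 0.22 to 0.62. Depth limits Ackr3 and Cx3cr1, which rest on 19 to 70 reads per library.

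Over all genes, 967 higher and 1144 lower became 501 and 681 when low values were not filtered, and 97 and 109 with the B cell score. They became 341 and 454 at a threshold of 0.01, and 492 to 1224 and 560 to 1375 with 1 library left out. The B cell score was higher in every Bach2-cKO library than in any WT library, so calls lost with it cannot be assigned to B cells. For signalling and turnover genes, 6 higher and 1 lower became 1 and 0 with the B cell score, 2 and 0 at 0.01, and 2 to 6 and 0 to 1 with 1 library left out. For other chemokine receptors, 6 higher and 3 lower became 1 higher without the filter, 0 higher and 1 lower under the B cell score, 2 higher at 0.01, and 3 to 7 higher and 2 lower with 1 library left out. For regulators, whose alternatives were chosen after seeing the data, 7 higher and 1 lower became 3 and 0 without the filter, 1 and 0 under the B cell score, 2 and 0 at 0.01, and 3 to 6 and 0 to 1 with 1 library left out.

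Replicate numbers are shared by the groups, but deviations of same-numbered libraries correlated at -0.053, 0.006 and -0.215 across genes, so the numbers were not taken to pair libraries. With the replicate block 625 genes were higher and 657 lower, 3 signalling genes were higher and 0 lower, 3 other chemokine receptors were higher, and 4 regulators were higher and 0 lower. Under that block the calls of Cxcr6 and Cxcr3 held, with log2 fold changes of 1.31 and 0.54.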

Other observations

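Zfp683, which encodes the tissue residency factor HOBIT, is among the 17 regulators but was below the filter on low values. It is therefore not among the 16 tested with that filter. Zfp683 was named after its values were seen. Its FPKM was 0.349 ± 0.143 in WT and 1.19 ± 0.236 in Bach2-cKO (SD, n = 3 each), and all Bach2-cKO values lay above WT. Eomes, a T-box factor gene of cytotoxic lymphocytes, was also named after its values were seen. It was at 5.42 to 8.38 FPKM in WT and 8.71 to 16.0 in Bach2-cKO (limma adjusted p = 0.0661), lowest there in replicate 3.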
